A study of Mus musculus with 24 samples.

Results

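RNA-seq libraries of 3T3 mouse embryonic fibroblasts (MEFs) that lack both LKB1 and CRTC2 (clone A1) were compared with libraries of MEFs that lack LKB1 alone, both after IL-1β. The comparison takes 6 of the 24 libraries of the series, 3 labelled as clone A1 with IL-1β and 3 labelled as Lkb1-/- MEFs with IL-1β. IL-1β is an inflammatory cytokine, and cells were exposed to it for 6 h. The Lkb1-/- MEFs carry a loss of Stk11, the gene that encodes LKB1, and clone A1 carries the same loss. Clone A1 was in addition edited with CRISPR guides against the first exon of Crtc2 and was grown out from a single sorted cell, so that every Lkb1-/-/Crtc2-/- library of this comparison comes from 1 clone. What the edit did and what differed between this clone and the other Lkb1-/- cells beforehand therefore cannot be told apart within these 6 libraries. Untreated libraries of the same lines, libraries of the other Lkb1-/-/Crtc2-/- clone (A2) and libraries of wild-type MEFs, each in groups of 3, are used below only to place the differences.

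LKB1 is a serine/threonine kinase and tumor suppressor that activates a family of downstream kinases, among them the salt-inducible kinases (SIKs). SIKs phosphorylate the CRTC coactivators, which are then held in the cytoplasm. Without that phosphorylation CRTCs enter the nucleus, bind the transcription factor CREB at cAMP response elements (CREs) and recruit the acetyltransferases CBP and p300. In fibroblasts, IL-1β signals through IL1R1, MyD88 and IRAK kinases to NF-κB, which drives cytokine and chemokine genes.

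The promoters below are those of 3 genes that were called lower in clone A1 and that hold the letters of a CRE. Nr4a1 was lower by less than Il6 and Areg. They are shown because CREB binds such letters and CRTC2 acts through CREB. Each is the 250 bases before the RefSeq start in GRCm38.p6, read 5′ to 3′ on the strand of the gene, with the CRE half-site TGACG or its reverse complement in capitals. Overlapping matches run together, and the full palindrome TGACGTCA counts as both half-sites.
Il6, chr5:30012864-30013113, plus strand: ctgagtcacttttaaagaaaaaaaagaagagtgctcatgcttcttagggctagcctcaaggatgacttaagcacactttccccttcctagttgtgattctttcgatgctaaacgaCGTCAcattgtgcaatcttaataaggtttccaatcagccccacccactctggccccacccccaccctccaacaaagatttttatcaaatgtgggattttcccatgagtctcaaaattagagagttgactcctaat
Areg, chr5:91139349-91139598, plus strand: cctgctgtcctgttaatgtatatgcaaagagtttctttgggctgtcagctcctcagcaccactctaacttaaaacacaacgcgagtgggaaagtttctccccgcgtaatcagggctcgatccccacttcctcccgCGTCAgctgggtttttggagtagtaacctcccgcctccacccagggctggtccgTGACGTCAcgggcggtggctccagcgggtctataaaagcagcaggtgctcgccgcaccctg
Nr4a1, chr15:101266596-101266845, plus strand: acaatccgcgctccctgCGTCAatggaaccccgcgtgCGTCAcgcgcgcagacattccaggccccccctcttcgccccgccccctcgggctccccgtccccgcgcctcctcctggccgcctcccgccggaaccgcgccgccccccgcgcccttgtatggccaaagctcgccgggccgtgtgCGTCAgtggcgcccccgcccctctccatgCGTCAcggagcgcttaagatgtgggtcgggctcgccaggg
The half-site of Il6 began 135 bases before the start, and Areg held the palindrome 61 bases before it. Nr4a1 held 4 half-sites. On both strands, the half-site was found in 17.8% of all 32851 promoter windows of this length, in 27.2% of the 2842 windows of genes called lower in clone A1, in 25.4% of the 3179 windows of genes called higher and in 25.4% of the 7873 windows of tested genes that were not called. The palindrome was found in 1.55% of all windows, and in 3.17%, 2.20% and 2.39% of those 3 sets. An NF-κB-like motif (searched on both strands) were found in 1.41% of all windows, including that of Il6. These are matches of letters, and no binding was measured here.

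Counts on genes ranged from 38842901 to 48594394 both over the 24 libraries and within these 6. Levels are given as CPM, counts scaled to a common library size, after TMM scaling. A gene was called at a Benjamini-Hochberg false discovery rate (FDR) under 0.05 in edgeR's quasi-likelihood test, fitted to all 24 libraries. Replicate 1 stood apart from replicates 2 and 3 in every group. Between 2 libraries of 1 group, the chi-square per gene was 37.9 to 107 where 1 of them was replicate 1 and 7.46 to 18.8 otherwise, and on the second principal component of the 6 libraries the replicates 1 lay at 37.1 and 34.4, away from the other 4. The labels do not say whether replicates were separate cultures, so the tests measure only the spread between these libraries, which may be technical. In bulk libraries, fewer cells of a type and less RNA per cell cannot be told apart. Most, but not all, fibroblast markers were abundant in both lines. Thy1 (at most 0.0623 CPM), Lum (at most 0.23 CPM) and S100a4 (at most 0.984 CPM) were low in all 6 libraries. Of 11 markers 9 passed the filter on low counts, and their summed level was 5850 to 7320 CPM in the Lkb1-/- libraries and 8030 to 8960 CPM in clone A1. Vim, Fn1, Col1a1 and Col1a2 were called higher in clone A1 and Dcn was called lower (log2 fold change -2.47). Summed markers of epithelial, endothelial and skeletal muscle cells stayed under 0.5 CPM in all 6 libraries, and those of leukocytes lay between 4.39 and 6.21 CPM in Lkb1-/- MEFs and between 5.89 and 8.48 CPM in clone A1. Of the leukocyte markers Ptprc and Adgre1 were at 0, and Cd68 was called higher in clone A1 (0.59, FDR = 0.03). Fabp4, the 1 adipocyte marker that passed the filter, was higher in clone A1 (1.13) and Tubb3, the 1 neural marker, was lower (-1.55).

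The 2 targeted genes were examined first. Crtc2 (ENSMUSG00000027936.18, chromosome 3, 90254163 to 90264125 in GRCm38) had 79.4, 84.6 and 84.2 CPM in the Lkb1-/- libraries and 52.4, 46.1 and 43.1 CPM in those of clone A1. The groups did not overlap, and Crtc2 was lower in clone A1 by a log2 fold change of -0.81 (SE 0.0664, FDR = 1.1e-08). Reads on Crtc2 thus remained. A small change of sequence in the first exon need not remove the transcript, so these counts do not show whether CRTC2 protein was lost. The study checked its knockouts by immunoblot, which was not analysed here. Stk11 (chromosome 10, 80115803 to 80130682) had 16.8 ± 0.483 CPM (SD, n = 3) in Lkb1-/- MEFs, 22.5 ± 0.962 CPM in clone A1 and 84.7 ± 1.48 CPM in wild-type MEFs, so that both lines of this comparison were low in Stk11.

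After IL-1β, 6437 of 17522 genes tested (36.7%) differed between the lines. In clone A1, 3399 were called higher (19.4%) and 3038 were called lower (17.3%). Most differences were small. A change of more than 1 on the log2 scale was seen for 782 higher and 729 lower genes, and of more than 2 for 264 and 272. Of these last genes, 149 had 3 counts or fewer in each library of 1 group. Without replicate 1 of any group, an alternative chosen after the libraries were seen, 7271 genes were called, 3753 higher and 3518 lower. The CPM ranges of the groups did not overlap for 7859 genes (44.9%).

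**Figure D1:**
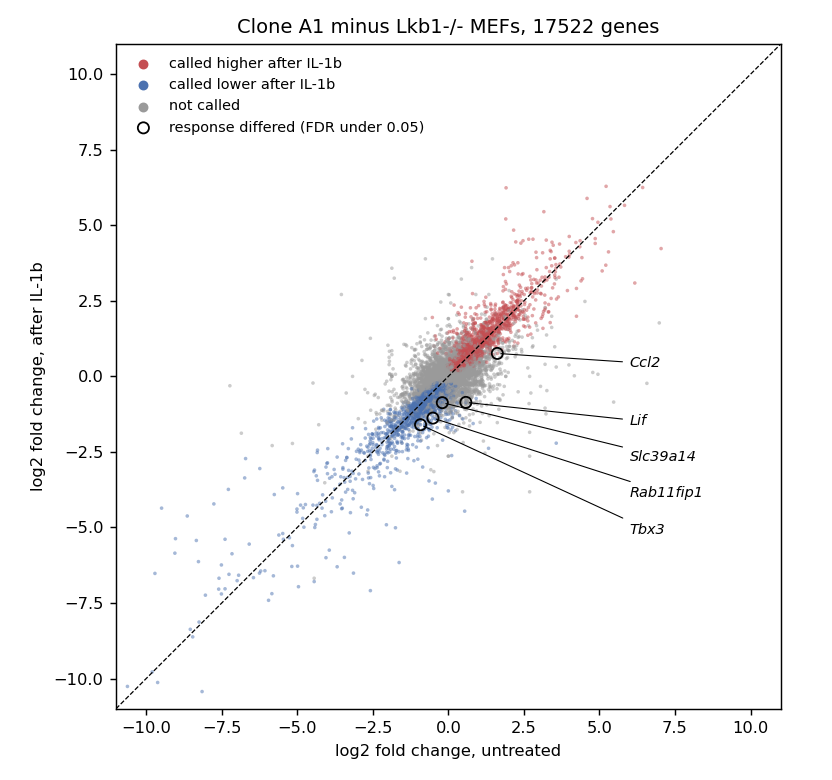
Log2 fold change between clone A1 and Lkb1-/- MEFs for each of 17522 genes, in untreated libraries (horizontal axis) and after IL-1β (vertical axis), with equality dashed. Genes called after IL-1β are colored, and the 5 circled genes lie below the dashed line because their IL-1β response was lower in clone A1.

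Most of the differences were also present without IL-1β. The untreated libraries of both lines share no library with the stimulated ones, and in them 6181 genes (35.3%) were called. Of the 3399 genes higher in clone A1 after IL-1β, 2792 (82.1%) were also called higher without it, which is 84.5% of the untreated list, and none was called lower. Of the 3038 lower genes, 2448 (80.6%) were called lower without IL-1β, 85.1% of that list, and 2 were called higher. The sign was the same for 99.6% of the higher and 98.3% of the lower genes.

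When the IL-1β response of clone A1 was tested against that of Lkb1-/- MEFs, 5 genes were called (0.0285% of those tested), all 5 with a smaller response in clone A1. At an unadjusted p under 0.05, 433 genes passed, 150 with a larger and 283 with a smaller response. With the replicate number as a block, 36 genes were called, 10 larger and 26 smaller. DESeq2 called 12 genes, 2 larger and 10 smaller, and without a filter on low counts 141 were called, 30 larger and 111 smaller. Among the 5 genes the difference was largest for Lif, an IL-6 family ligand. It had 10.9, 9.42 and 7.43 CPM in untreated Lkb1-/- libraries and 81.0, 67.9 and 80.8 CPM after IL-1β, whereas clone A1 had 14.2, 16.0 and 11.3 CPM untreated and 42.5, 42.6 and 41.3 CPM after IL-1β. Clone A1 thus started higher (0.58, FDR = 0.0045) and ended lower (-0.86, FDR = 6.6e-05), and the response differed by -1.44 (SE 0.21, FDR = 0.015). For Il6 the response difference was of similar size but was not called (-1.45, SE 0.51, FDR = 1). Ccl2, a monocyte chemoattractant, went from 192 to 865 CPM in Lkb1-/- MEFs and from 588 to 1470 CPM in clone A1, so that it was higher in the clone under both conditions although its response was smaller (-0.86, FDR = 0.031). Tbx3, a T-box repressor, rose from 33.2 to 82.6 CPM in Lkb1-/- MEFs and stood at 17.6 and 27.3 CPM in clone A1 (-0.68, FDR = 0.031). Slc39a14, a zinc and iron importer, had 152 and 243 CPM in Lkb1-/- MEFs against 132 and 133 CPM in the clone (-0.67, FDR = 0.026), and Rab11fip1, an effector of RAB11 in endosome recycling, had 48.3 and 109 CPM against 34 and 41.8 CPM (-0.87, FDR = 0.031). None of the 5 calls held in every fit that left out 1 library. Without single libraries of these 4 groups 0 to 4 genes were called, and none without A1 IL-1β replicate 1 or 2, A1 untreated replicate 2, or replicate 3 of either Lkb1-/- group.

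IL-6 family ligands, which signal through the shared receptor gp130, were lower in clone A1 in most cases. Of 7 tested ligands 5 were called lower and none higher, with a median log2 fold change of -0.86, against 0.01 over all genes. The counts for this and the following lists stand beside 36.7% called, 19.4% higher and 17.3% lower, over all genes tested. Osm, Il27 and Ctf2 did not pass the filter on low counts. Il6 (chromosome 5, 30013114 to 30019981), the inflammatory cytokine that gives the family its name, had 121, 109 and 125 CPM in the Lkb1-/- libraries and 5.79, 5.87 and 5.97 CPM in those of clone A1. Every clone A1 library thus lay far below every Lkb1-/- library, and Il6 was lower by -4.33 (SE 0.24, FDR = 4.2e-11). Il11, a fibrogenic member, had 21.5, 17.9 and 24.6 CPM against 2.55, 2.44 and 1.97 CPM (-3.20, SE 0.28, FDR = 2.4e-08). Clcf1, another ligand of the family, had 48.5, 33.5 and 35.0 CPM against 30.9, 19.9 and 17.4 CPM. It lies on chromosome 19, whose median was -0.35. Its call (-0.78, FDR = 0.016) was lost without Lkb1-/- replicate 1 (FDR = 0.09), A1 replicate 2 (FDR = 0.07) or A1 replicate 3 (FDR = 0.11). Cntf and Ctf1 were not called, at 0.05 and 0.08.

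Without IL-1β the order of the family was partly the same. Il6 was lower in untreated clone A1 by -2.88, Il11 by -2.65 and Clcf1 by -0.94, while Lif was higher. After IL-1β wild-type MEFs had 3.72 ± 1.07 CPM of Il6, 1.17 ± 0.386 CPM of Il11 and 22 ± 1.27 CPM of Lif (SD, n = 3). Clone A2 had 16.0 ± 5.56, 1.59 ± 0.507 and 18.7 ± 2.42 CPM of these genes. Against clone A1, clone A2 was higher in Il6 by 1.44 (FDR = 4.3e-05) and lower in Lif by -1.17 (FDR = 3.1e-06), and Il11 did not differ beyond the spread (-0.55, SE 0.29, FDR = 0.16). In this test 5374 genes (30.7%) were called between the clones.

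**Figure D2:**
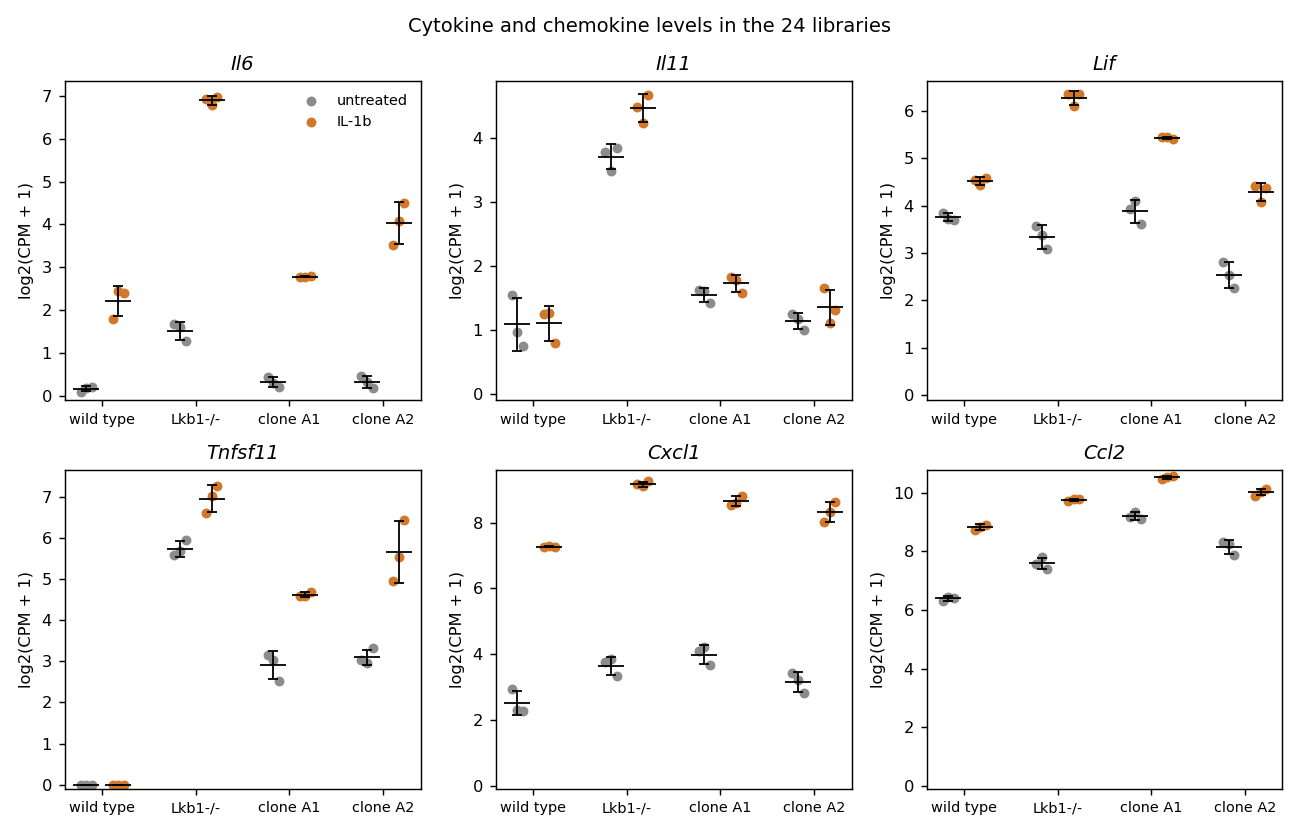
Levels of 6 cytokine and chemokine genes as log2(CPM + 1) in all 24 libraries, by genotype and treatment. Points are libraries, and bars are the mean ± SD of 3. Il6 after IL-1β was 109 to 125 CPM in Lkb1-/- MEFs and 5.79 to 5.97 CPM in clone A1, whereas Ccl2 was higher in clone A1.

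Of 17 tested gp130 receptors, JAK and STAT genes and SOCS inhibitors, 6 were called lower and 3 higher (52.9% called, median -0.22). The median was -0.02 without IL-1β, and clone A2 against the same Lkb1-/- libraries after IL-1β had a median of 0.19. Jak2, a receptor-associated kinase, had 71.5 ± 13.7 CPM in Lkb1-/- MEFs and 33.1 ± 4.73 CPM in clone A1 (-1.11, FDR = 1.4e-05), on chromosome 19, where the median gene was at -0.35. Cish, a feedback inhibitor of cytokine receptors, was lower by -1.24 and Socs2, of the same family, was higher by 1.56, from 0.569 to 1.69 CPM. Tyk2 was higher by 0.41 on chromosome 9, whose median was 0.32.

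Of 5 tested ELR CXC chemokines, which attract neutrophils, 2 were called lower and 3 were not called. This share of 40% is near that of all genes (36.7%). Cxcl1 had 573, 549 and 611 CPM in the Lkb1-/- libraries and 374, 388 and 452 CPM in clone A1, without overlap (-0.51, FDR = 0.032), and its call was lost without replicate 1 or 3 of Lkb1-/- MEFs (FDR = 0.057 and 0.09) or replicate 1 or 2 of clone A1 (FDR = 0.1 and 0.095). Cxcl2 had 30.4 ± 1.10 and 25.0 ± 1.80 CPM (-0.28, FDR = 0.24). Cxcl5, the most abundant of them, had 1590, 1760 and 1940 CPM against 1990, 1980 and 2480 CPM (0.29, FDR = 0.19). These CXC genes, with Il6, Areg and Ereg, lie on chromosome 5, whose median was 0.01.

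CC chemokines, which attract monocytes and other leukocytes, were higher more often, with 5 called higher and 2 lower of 11 tested. Ccl2 had 842, 883 and 871 CPM in the Lkb1-/- libraries and 1420, 1470 and 1510 CPM in clone A1 (0.76, SE 0.10, FDR = 6.7e-06). Ccl7 rose with it, from 461 to 1060 CPM (1.21), and Ccl9 from 3.32 to 11.7 CPM (1.82). All 3 lie on chromosome 11, where the median gene was at 0.28, and the median of the 11 chemokines was 0.76, or 0.48 after the median of each gene's own chromosome was taken off. Neighboring chemokine genes can be similar in sequence, and whether reads were shared between them was not tested. Cxcl12, the ligand of CXCR4, had 38.3, 65.6 and 49.0 CPM against 171, 229 and 243 CPM (2.07, SE 0.26, FDR = 2.7e-06). Its decoy receptor Ackr3 was lower (-0.91, FDR = 0.01). Cxcl14 was higher by 3.46, from 0.445 to 4.94 CPM, and Cx3cl1, the membrane-bound fractalkine, by 1.22. After IL-1β Cxcl12 was at 1.30 CPM in wild-type MEFs and 134 CPM in clone A2.

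Of 8 tested ligands and decoy receptors of the TNF superfamily, 3 were called lower and 1 higher. Tnfsf11, which encodes the osteoclast-inducing ligand RANKL, had 95.3, 129 and 151 CPM in the Lkb1-/- libraries and 22.9, 22.9 and 24.8 CPM in clone A1 (-2.41, SE 0.29, FDR = 5.2e-06). The Lkb1-/- libraries varied, and all 3 lay above the clone. In wild-type MEFs the mean level was 0 CPM, and in clone A2 it was 53.8 ± 28.9 CPM. Among colony-stimulating factors and stromal cytokines, 6 of 13 were called higher and 2 lower. Without Lkb1-/- replicate 3 there were 5 calls among them, and 5644 over all genes. Kitl, the ligand of KIT, rose from 73.6 to 161 CPM (1.13), and Il18, an inflammasome-processed cytokine, from 2.45 to 12.3 CPM (2.32).

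CREB targets were lower in clone A1 in most cases. Of 30 genes known as CREB targets, 19 were called lower and 3 higher (73.3% called, against 36.7% of all genes), with a median of -0.66, or -0.52 relative to each gene's own chromosome. Without IL-1β 15 were called lower and 3 higher. Areg, an EGF receptor ligand, had 5.37, 3.03 and 4.37 CPM in the Lkb1-/- libraries and 0.172, 0.230 and 0.200 CPM in clone A1. It was lower by -4.38 (SE 0.49, FDR = 7.1e-07), on 552 counts against 25. Pde10a, a cyclic nucleotide phosphodiesterase, was lower by -1.81, from 45.5 to 13.0 CPM, and Ptgs2, the inducible cyclooxygenase, by -1.68, from 708 to 221 CPM. The nuclear receptor Nr4a1, whose promoter is shown above, was at 9.99 CPM in Lkb1-/- MEFs and 4.21 CPM in clone A1 (-1.25), and was chosen for mention after its value was seen. The 3 genes that were higher were Bdnf, a neurotrophin (0.70), Cited2 (0.50, chromosome 10, median 0.38) and Atf3 (0.48). The call of Atf3 was lost without A1 replicate 2 (FDR = 0.07). Of the 30 genes 23 had a promoter window in the reference, and 17 of these held a half-site in at least 1 window, namely 10 of the 14 called lower and 7 of the other 9. A gene with several windows counts once here, so these shares cannot be set against those of single windows. In the IL-6 family, 1 of 5 genes with a window, Il6, held it.

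The proteins that carry the CRTC signal also differed in transcript level, on a smaller scale. Of 26 components of the CRTC and CREB machinery 10 were called lower and 6 higher, with a median of 0.01. Besides Crtc2, its paralog Crtc1 was lower (-0.72, FDR = 1.7e-07) on chromosome 8, whose median was -0.37. Crem, a CREB family member that is itself induced through CREs, was lower by -0.96, and Hdac4, a class IIa deacetylase that SIKs phosphorylate, by -1.26. The SIK kinases did not move together. Sik1 was lower (-0.64, chromosome 17, median -0.40), and Sik2 (0.36) and Sik3 (0.25) were higher, both on chromosome 9 with its median of 0.32. The call of Sik3 was lost without Lkb1-/- replicate 1 (FDR = 0.056). Prkar2a, a regulatory subunit of protein kinase A, was higher by 0.82, also on chromosome 9. Creb1 (-0.26, FDR = 0.064), Crtc3 (-0.31, FDR = 0.067), Hdac5 (0.32, FDR = 0.065) and Prkar1a (0.21, FDR = 0.095) were not called. A fit that blocked on the replicate number, which called 8603 of all 17522 genes, called all 4 (FDR = 0.0017, 8.2e-04, 5.3e-04 and 0.0031). The acetyltransferases Crebbp (0.02, SE 0.07) and Ep300 (0.01, SE 0.06) were not called.

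Among IL-1 receptors and the proteins that act directly behind them, 6 of 21 were called lower and 2 higher (median -0.03, 38.1% called). Il1r1, the signaling receptor for IL-1β, was at 175 ± 23.2 CPM in Lkb1-/- MEFs and 107 ± 12.3 CPM in clone A1 (-0.72, FDR = 3.6e-04). Irak3, an inducible brake of the pathway, was lower by -2.14, and the IκB kinase subunit Chuk by -0.53, the latter on chromosome 19 with its median of -0.35. NF-κB target and feedback genes were mixed after IL-1β, with 10 of 27 called lower and 6 higher. Without IL-1β 4 were called lower and 10 higher, and the response difference was not called for Vcam1, Sod2, Irf1 or Rel (FDR = 1 each). Vcam1, an adhesion molecule, was higher (1.24), as were the interferon regulatory factor Irf1 (0.84) and the NF-κB subunit Rel (0.51). Irf1 and Rel lie on chromosome 11, whose median was 0.28. Sod2, the mitochondrial superoxide dismutase, was lower by -1.62, from 467 to 152 CPM.

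The lower NF-κB targets included 2 secreted acute-phase proteins. Saa3, a serum amyloid A gene, had 70.3, 178 and 166 CPM in the Lkb1-/- libraries and 5.15, 5.85 and 11.6 CPM in clone A1 (-4.20, SE 0.62, FDR = 1.9e-05). Lcn2, the siderophore-binding lipocalin, had 33.7, 66.8 and 74.6 CPM against 9.42, 10.5 and 11.3 CPM (-2.49, FDR = 2.6e-04). Replicate 1 of the Lkb1-/- MEFs was the lowest of its group for both, and it still lay above every clone A1 library. Acute-phase and complement genes as a list had 9 of 17 called lower and 2 higher, with a median of -1.02. Orm1, an orosomucoid, was lower by -3.07, Cd55, a brake on complement, by -4.24, and Clu, the chaperone clusterin, was higher by 2.22. The clones differed in these genes. Clone A2 had 158 CPM of Saa3, 86.3 CPM of Lcn2 and 2.69 CPM of Orm1, and was above clone A1 by 4.40 (FDR = 1.7e-05), 3.05 (FDR = 5.0e-05) and 3.16 (FDR = 1.9e-05).

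Among growth factors of blood vessels, Vegfa had 212, 152 and 205 CPM in the Lkb1-/- libraries and 61.1, 47.7 and 61.8 CPM in clone A1 (-1.74, SE 0.15, FDR = 2.4e-08). It lies on chromosome 17, whose median was -0.40. Its receptor Flt1 was higher (1.04), and of the 10 genes tested 2 were called in each direction. Of 12 EGF receptor ligands and receptors 3 were called in each direction. Ereg, epiregulin, had 452, 402 and 468 CPM against 119, 87.2 and 91.9 CPM (-2.15, FDR = 1.2e-07), and Hbegf, heparin-binding EGF, was higher by 1.08. Of 15 prostaglandin genes 6 were called lower and 4 higher, with a median of -0.24. Beside Ptgs2, the lower genes included Ptges, the inducible prostaglandin E synthase (-3.29, from 14.7 to 1.5 CPM), and the receptors Ptger2 (-2.15) and Ptgfr (-1.96). The higher genes included Ptges3, another prostaglandin E synthase (0.39), and the receptors Ptger1 (0.59) and Ptger4 (0.62). Ptges3 lies on chromosome 10, whose median was 0.38. The call of Ptger1 was lost with unstranded counts (FDR = 0.79) and without Lkb1-/- replicate 1 (FDR = 0.15), A1 replicate 1 (FDR = 0.12) or A1 replicate 3 (FDR = 0.055), and that of Ptger4 without Lkb1-/- replicate 1 (FDR = 0.084) or A1 replicate 3 (FDR = 0.06).

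Genes of the extracellular matrix and of contractile fibers were higher in clone A1 more often than lower. Of 22 collagen genes 11 were called higher and 4 lower (median 0.70). Col8a1, a short-chain collagen, had 28.5, 21.2 and 21.8 CPM in the Lkb1-/- libraries and 202, 238 and 254 CPM in clone A1 (3.28, SE 0.21, FDR = 2.2e-10). Col1a2, a chain of type I collagen, rose from 41.2 to 189 CPM (2.19) and Col11a1 from 11.3 to 40.1 CPM (1.83). The basement membrane chains Col4a1 and Col4a2, neighbors on chromosome 8 with its median of -0.37, were lower by -0.77 and -0.80. Of 15 myofibroblast contractile genes 7 were called higher and none lower, with a median of 0.72. Clone A2 differed here. Against the same Lkb1-/- libraries its median was -0.15 for collagens and -0.18 for contractile genes, and against clone A1 it was called lower for 12 collagens and 10 contractile genes and higher for 4 and 0. The regulatory light chain gene Myl9 was at 0.569 CPM in Lkb1-/- MEFs and 7.49 CPM in clone A1 (3.70, FDR = 5.2e-08). Tagln, transgelin, was higher by 2.11, a call that was lost with unstranded counts (FDR = 0.71).

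Of 22 ligands and inhibitors of the TGF-β and BMP family 10 were called higher and 6 lower (median 0.37). Bmp2, a bone-inducing ligand, had 0.888, 1.68 and 1.44 CPM in the Lkb1-/- libraries and 8.78, 14.8 and 15.8 CPM in clone A1 (3.28, FDR = 2.0e-05). Nog, an inhibitor of BMPs, rose from 0.211 to 3.26 CPM and Gdf5 from 4.42 to 22.2 CPM. Grem1, another BMP inhibitor, was lower in clone A1 (284 to 151 CPM, -0.91), and Tgfb1 was lower by -0.53. Of 28 matrix proteases and inhibitors 9 were called higher and 6 lower. Mmp2 was lower by -1.6, from 468 to 154 CPM, and Adamts12 was higher by 2.03.

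Of 21 glycolysis and hypoxia genes tested, 14 were called lower and none higher, with a median of -0.52, or -0.49 relative to each gene's own chromosome, and 13 were called lower without IL-1β. Bnip3, a hypoxia-induced mitophagy receptor, was at 144 CPM in Lkb1-/- MEFs and 54.7 CPM in clone A1 (-1.39, FDR = 0.0011). Pdk1, which restrains pyruvate entry into mitochondria, was lower by -1.13, a call lost without A1 replicate 1 (FDR = 0.066) or Lkb1-/- replicate 2 (FDR = 0.056). Cell cycle genes were split, with 11 of 30 called lower and 7 higher. Ccnd2 (-1.25) and Ccne1 (-0.65) were lower, and Cdk6 (0.76) and Cdk4 (0.51) were higher, the latter on chromosome 10 with its median of 0.38. Of 18 p53 targets and INK4-ARF genes 6 were called higher and 3 lower, and 14 passed once the replicate number was a block. Cdkn1a, the p21 inhibitor, was lower by -1.92, and Cdkn2b, the p15 inhibitor, was higher by 1.31.

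Few interferon-stimulated genes were called in the main fit. Of 29 tested 3 were called lower and 1 higher (13.8% against 36.7%). With the replicate number as a block 11 passed, against 8603 of 17522 over all genes. Without a filter on low counts 17 passed, against 6235 of 36796 over all genes. With at least 10 counts in every library 1 passed, against 5746 of 12755. Oasl1, an oligoadenylate synthase-like protein, was lower by -2.53 (5.29 to 0.913 CPM). Of 24 sterol synthesis and uptake genes 6 were called higher and none lower (25% called, against 36.7% of all genes). Without IL-1β 1 was called higher and 4 lower, and the response difference was not called for Sc5d, Lss or Cyp51 (FDR = 1 each). The count of 6 was 2 without Lkb1-/- replicate 2 or A1 replicate 3, 3 without Lkb1-/- replicate 3, and 11 without replicate 1 of any group. Over all genes these fits called 5522, 5883, 5644 and 7271. Sc5d, a late enzyme of cholesterol synthesis, was the highest of the 6 sterol genes (0.65, FDR = 9.8e-06). It lies on chromosome 9, whose median was 0.32. Of 4 Y-linked genes tested 1 was called (Kdm5d, 0.18, FDR = 0.04), and leaving out single libraries of these groups ended its call in 5 of 6 cases, with FDR up to 0.19. Mean levels of these 4 genes lay between 41.2 and 103 CPM in both lines, whereas none exceeded 0.0493 CPM in wild-type MEFs after IL-1β, so that wild-type values given here come from cells that differ from both lines in more than LKB1.

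**Figure D3:**
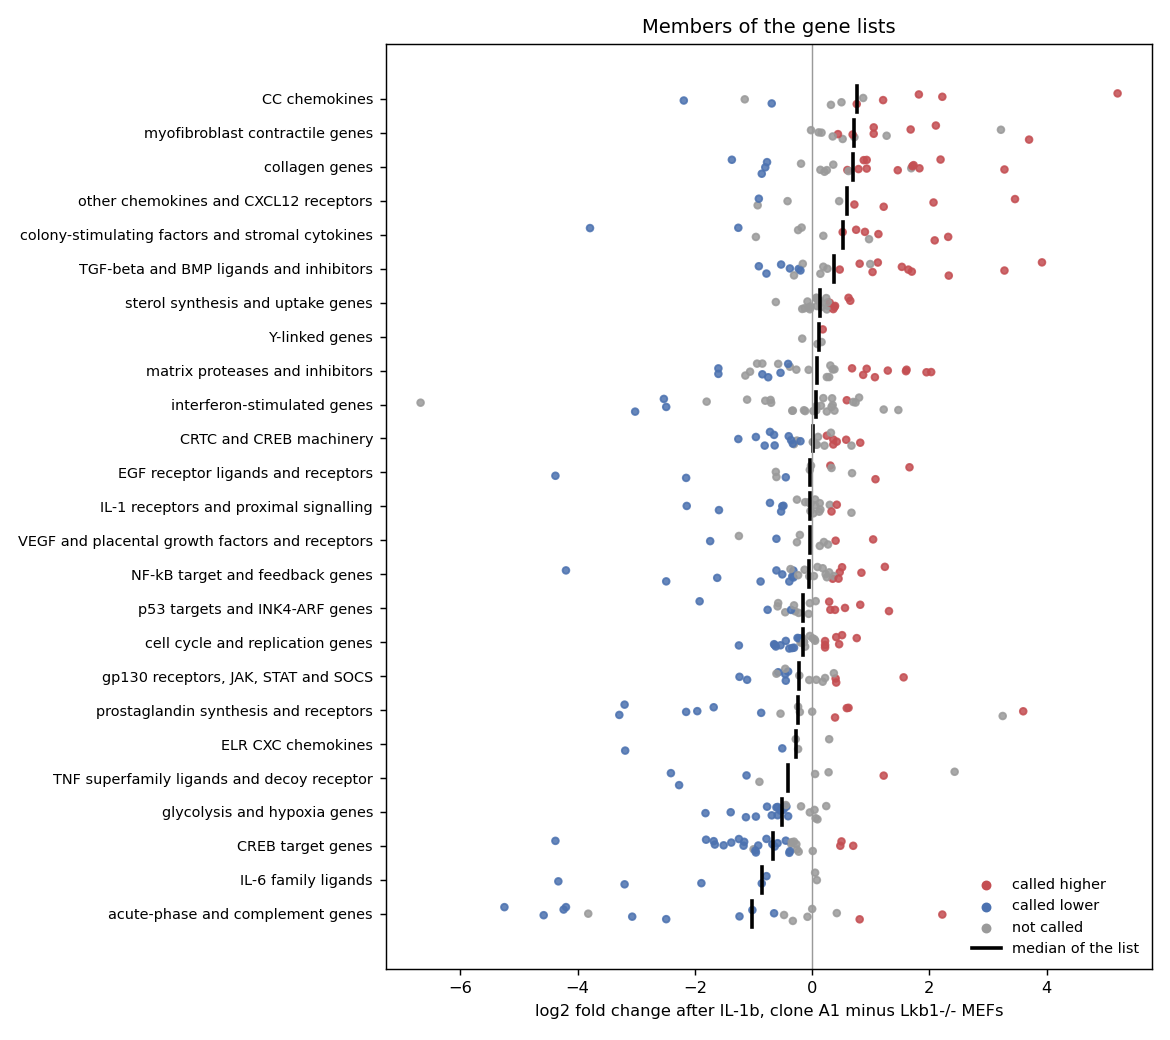
Log2 fold changes after IL-1β of the tested members of 25 gene lists, ordered by their median (black bar). The lowest median is that of acute-phase and complement genes (-1.02), followed by IL-6 family ligands (-0.86) and CREB targets (-0.66), and CC chemokines have the highest (0.76).

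The 10 genes with the largest differences in each direction, taken from called genes whose mean log2 CPM over all 24 libraries exceeded 3 and whose groups did not overlap, were mostly not cytokines. For 6 of these 20 genes, Kcnq1ot1, Cspg4, Auts2, Fam198b, Zfhx4 and Epb41l4a, the log2 of the mean CPM over the groups other than wild type was under 3, so that they met the minimum through wild-type MEFs. Zfhx4 and Epb41l4a were under 1 CPM in both lines compared. Genes with large changes that did not reach the minimum included Areg (-4.38), Cd55 (-4.24), Nog (3.92), Myl9 (3.70) and Cxcl14 (3.46). Ccl20 did not reach it either, with 0 counts over the Lkb1-/- libraries and 13 over those of clone A1, at least 1.53-fold higher when Lkb1-/- MEFs are set to 3 counts in each library. Wnt5a, a ligand of non-canonical Wnt signaling, had 0.576, 0.852 and 0.840 CPM in the Lkb1-/- libraries and 29.9, 36.7 and 45.5 CPM in clone A1 (5.62, SE 0.29, FDR = 1.5e-11). Ogn, a small leucine-rich proteoglycan, followed (5.22, from 0.446 to 16.8 CPM), then Lama4, a laminin chain (4.43), Fam198b (4.12) and the cadherin gene Cdh18 (3.91). Insyn1, Bmp2, Col8a1, Nav3 and the tetraspanin gene Tspan7 completed the group, at 3.14 to 3.47. Wnt5a was at 2.40 ± 0.360 CPM in wild-type MEFs and 4.39 ± 1.29 CPM in clone A2, and clone A2 was below clone A1 by -3.09 (FDR = 8.6e-09). Clone A2 was below clone A1 at an FDR under 0.05 for all of these 10 genes but Bmp2 (0.52, FDR = 0.37) and Lama4 (-0.80, FDR = 0.084).

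In the other direction, Kcnq1ot1, an imprinted RNA antisense to Kcnq1 (chromosome 7, 143203458 to 143296549), had 14.3, 7.75 and 7.48 CPM in the Lkb1-/- libraries and 1, 2 and 1 counts in clone A1. On 1280 counts against 4, its level was 302 times higher in Lkb1-/- MEFs (95% interval 118 to 1110, counting error only). In clone A2 it was at 0 CPM after IL-1β, and in wild-type MEFs at 39.4 ± 7.29 CPM. Cspg4, the NG2 proteoglycan, had 11.9, 11.6 and 11.5 CPM against 0.123, 0.0921 and 0.0999 CPM, a ratio of 112 (65.1 to 210), and 149 CPM in wild-type MEFs. Auts2 was lower by -5.2 (SE 0.21), the coronin gene Coro2a by -4.27, the axon guidance ligand Slit3 by -3.73 and Hgf, the ligand of MET, by -3.44. Zfhx4 rested on 66 counts against 3, a ratio of 20.8 (6.81 to 103). Epb41l4a had 27 counts over the Lkb1-/- libraries and 0 over those of clone A1, which makes it at least 2.83-fold lower when clone A1 is set to 3 counts in each library. With unstranded counts Epb41l4a did not differ (0.09, FDR = 0.89). Il6 and Saa3 were the other two genes of this group.

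**Figure D4:**
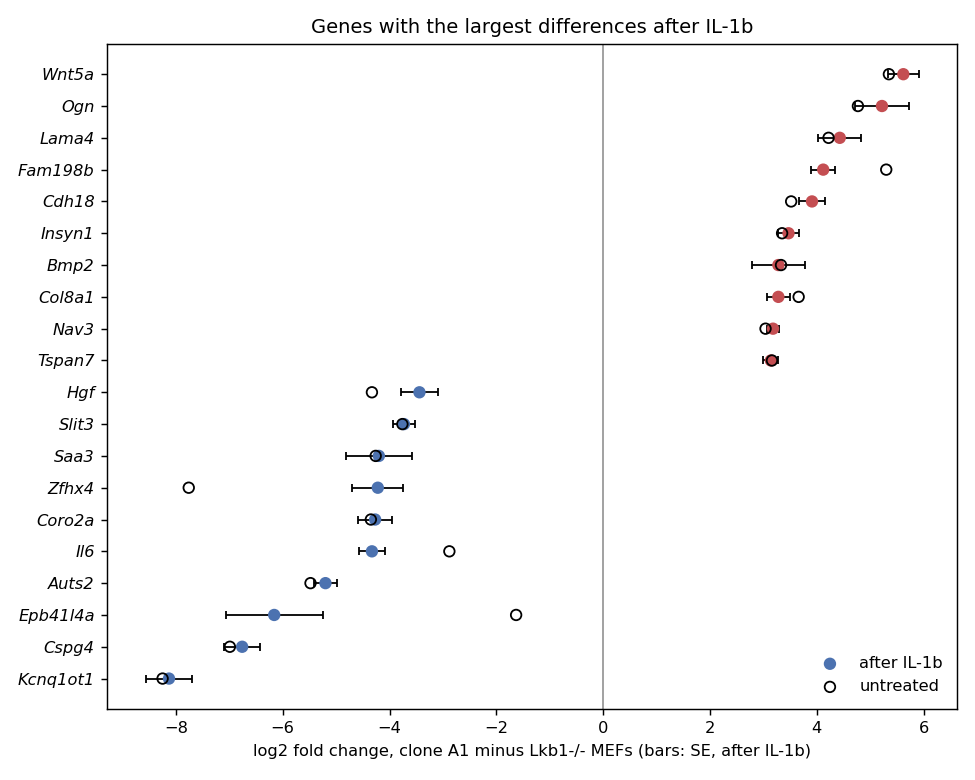
Log2 fold change between clone A1 and Lkb1-/- MEFs of the 10 genes with the largest differences in each direction, after IL-1β (filled, with SE) and untreated (open). Wnt5a is the highest at 5.62 and Kcnq1ot1 the lowest at -8.13, and the fitted values of Kcnq1ot1, Epb41l4a and Zfhx4 rest on 4 counts or fewer in clone A1.

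The differences were not spread evenly over the chromosomes. The median log2 fold change was -0.40 on chromosome 17, -0.37 on chromosome 8 and -0.35 on chromosome 19. On each of these chromosomes 50% to 51.3% of the tested genes were called lower and 2.45% to 3.86% were called higher. On chromosome 10 the median was 0.38, with 52.1% called higher and 4.05% lower, on chromosome 9 it was 0.32, and on chromosome 11 it was 0.28. Medians of chromosomes 2 to 7, 13, 14 and 16 lay between -0.07 and 0.05. Single clone A1 libraries were set against the mean of the Lkb1-/- libraries on log2 CPM, a measure other than the fitted fold change. By it the median lay between -0.39 and -0.36 on chromosome 17 and between 0.36 and 0.42 on chromosome 10. In 3 blocks of near-equal gene number, in order along the chromosome, the medians were -0.39, -0.41 and -0.39 on chromosome 17 and 0.36, 0.38 and 0.39 on chromosome 10. Other chromosomes were uneven, with -0.23, -0.04 and 0.01 on chromosome 13 and -0.19, -0.21 and -0.02 on chromosome 1. Untreated libraries gave medians of -0.38 for chromosome 17, -0.37 for chromosome 8, -0.35 for chromosome 19 and 0.39 for chromosome 10. For clone A2, which is compared with the same Lkb1-/- libraries, chromosomes 8, 10, 11 and 19 had medians of -0.29, 0.27, 0.34 and -0.29, and chromosomes 9 and 17 had 0.00 and 0.07. DNA copy number was not measured, and its part in these differences was not tested.

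**Figure D5:**
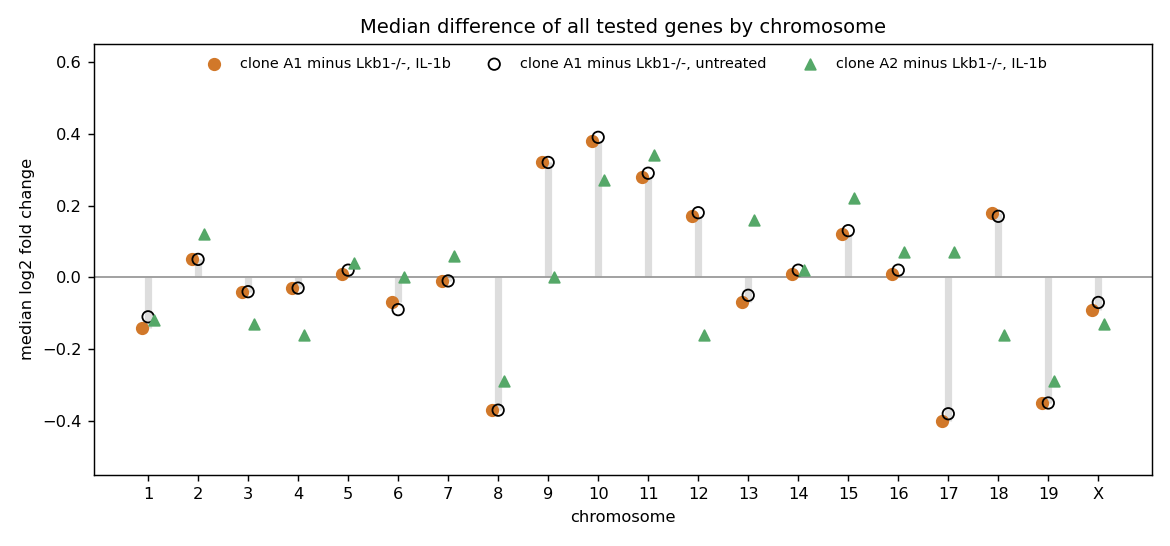
Median log2 fold change of the tested genes of each chromosome for clone A1 against Lkb1-/- MEFs after IL-1β (filled circles) and untreated (open circles), and for clone A2 against the same Lkb1-/- MEFs after IL-1β (triangles). Chromosomes 8, 17 and 19 lie at -0.35 or below and chromosome 10 at 0.38 for clone A1 after IL-1β.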

How the data were processed

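RNA was sequenced from 24 libraries of 3T3 MEFs in 8 groups of 3. The kit differs between the labels and the study's methods and is not settled here. Per the labels, the authors trimmed reads with Trim Galore 0.6.0, aligned them to mm10 with STAR 2.7.8a and deposited STAR's raw counts per gene. Column 4, counted on the second strand, was used here. Lines that name no gene (26.7% to 34.4% of each library) were left out. Of 55471 gene identifiers 55230 were matched to symbols in GENCODE M21.

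Counts were fitted with edgeR 4.0.16 (R 4.3.3, limma 3.58.1) after filterByExpr (minimum count 10, minimum total 15) and TMM scaling, with 1 mean per group over all 24 libraries and the quasi-likelihood test. Each SE was taken from the fold change and its F statistic, and p-values were adjusted by Benjamini-Hochberg over 17522 genes. The fit was also run on simulated counts. Among genes with a mean above 100 counts, it recovered 69 of 100 changed 1.5-fold and 94 of 100 changed 2-fold. These counts were drawn independently for each library, without the joint deviation of same-numbered libraries described below. The simulation therefore does not cover that feature of the data. With 3 libraries against 3, an exact two-sided permutation test of a single gene cannot go below 0.1, so none was used. Same-numbered libraries of the 2 groups deviated together (correlations 0.787, 0.561 and 0.705 over 9369 genes), so the replicate numbers were taken as pairing them. A fit with the number as a block was run beside the main one. Values and calls come from the main fit, which ignores this pairing, unless a block or another alternative is named. Alternatives were unstranded counts, other size factors, filters and tests (DESeq2 1.42.0), a fit to the compared groups alone, and fits that leave out each library in turn.

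The 10 called genes of largest change in each direction (mean log2 CPM above 3) were named, with up to 3 in each direction from each of 25 gene lists and the genes of the LKB1, CRTC and CREB pathway. The comparison, members and lists were chosen with earlier results of these data known. Promoters and symbols came from reference tables, and intervals and floors cover counting error only. Results for some genes are not reported here.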

Additional observations from a re-analysis of the deposited data

Results flagged for a closer look

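The IL-1β response differed between clone A1 and Lkb1-/- MEFs for 5 genes by a test of the difference itself (edgeR's quasi-likelihood test, Benjamini-Hochberg adjusted). The differences on the log2 scale were -1.44 for Lif, -0.87 for Rab11fip1, -0.86 for Ccl2, -0.68 for Tbx3 and -0.67 for Slc39a14. When each of the 12 libraries of these 4 groups was left out in turn, the call of Lif was lost in 5 fits (FDR up to 0.085), that of Slc39a14 in 8 (up to 0.11), that of Rab11fip1 in 9 (up to 0.17), that of Tbx3 in 10 (up to 0.17) and that of Ccl2 in 10 (up to 0.18), and none changed direction. Without replicate 1 of any group, Lif (FDR = 0.035), Slc39a14 (FDR = 0.0015) and Rab11fip1 (FDR = 0.035) were called, and Tbx3 (FDR = 0.078) and Ccl2 (FDR = 0.15) were not. Groups of 3 libraries are too small for a search for single outlying libraries.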

How the results depend on the processing

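The 6437 genes called between clone A1 and Lkb1-/- MEFs after IL-1β stayed within 1.5 times that number under every alternative run, from 5355 without clone A1 replicate 2 to 5891 without Lkb1-/- replicate 1 when single libraries were left out. The count of 5 genes whose IL-1β response differed was 3 with unstranded counts, 3 with upper quartile normalization, 12 with DESeq2, 141 without a filter on low counts, 10 without replicate 1 of any group and 0 to 4 without single libraries. With the replicate number as a block, which uses the pairing, it was 36 and 8603 genes were called in the main comparison. Values of genes that were not called changed sign in some fits. Without single libraries Prkar1b ranged from -0.21 to 0.48, Ctf1 from -0.06 to 0.23, Cntf from -0.15 to 0.18, Crebbp from -0.05 to 0.07 and Ep300 from -0.04 to 0.05. Without replicate 1 of any group Prkar1b was -0.19, Crebbp -0.01 and Ep300 -0.02, and Ep300 was 0 with DESeq2 and with its size factors. Epb41l4a was called and moved to 0.09 with unstranded counts. The causes were not tested. Low counts limit the genes at 4 counts or fewer in clone A1, whose fitted changes depend on the prior count.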
